A study of Daphnia sinensis with 8 samples.

Results

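The transcriptomes of adult males (M) and parthenogenetic females (PF) of the water flea *Daphnia sinensis* were compared through the libraries M_1 and M_2 against PF_1 and PF_2, which are 4 of the 8 libraries of the series. The members were chosen by their stage labels alone, and no measured value entered the choice. The other libraries were sexual females (SF_1 and SF_2), whose place for each unigene that separated males from parthenogenetic females is described here, and juvenile females (JF_1 and JF_2), which entered the shared fit and are given only for orientation. The juvenile females were pools of about 500 animals within 12 h of birth, from mothers kept singly. Poly-A RNA was sequenced from whole animals of a population from 1 lake, with no genetic change and no drug in any stage. By the labels, M, SF and PF animals were adults of 2 to 3 weeks. Each library was a pool, of about 60 males, 50 sexual females or 50 parthenogenetic females. Sexual females carried resting eggs and parthenogenetic females carried eggs for the first time, so RNA of the eggs was part of both female pools. Males were picked as juveniles and then kept in a beaker of their own for 2 weeks, whereas the females were taken from the crowded beakers. The effect of sex and that of this separate culture cannot be told apart. The methods elsewhere describe males as animals within 12 h of birth, which does not match the labelled age. Nothing states that both pools of a stage came from separate cultures, so p-values measure only the spread between these samples.

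In *Daphnia*, sex is normally set by the environment and not by sex chromosomes, so a mother can bear sons and daughters of the same genotype. Males have enlarged first antennae, hooks on the first legs and testes, and lack the brood pouch in which a parthenogenetic female carries her developing eggs. Sexual females make haploid eggs that are fertilized by males and enclosed in a hardened shell formed from the carapace, the ephippium. In *D. magna*, Dsx1, a transcription factor of the doublesex family that is switched on in male embryos, directs the development of male traits.

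The sequences known for single unigenes are the primers that the study designed for quantitative PCR. The pairs for the 4 unigenes on which the account of sex regulation, cuticle, digestion and basement membrane turns are shown to identify them, each 5′ to 3′ and in lower case throughout, because no base is singled out. Forward and reverse primers lie on opposite strands of the unigene.
Doublesex2, Cluster-5789.12340, forward: atagcattgaatcctgtgaag
Doublesex2, Cluster-5789.12340, reverse: cataccttgtgacctctga
chitin synthase 2, Cluster-5789.11830, forward: ctccatcgcttcctgtta
chitin synthase 2, Cluster-5789.11830, reverse: gcatcgttcgttcatcaa
trypsin-7-like protein, Cluster-5789.9553, forward: gtggtgtcgtagttctca
trypsin-7-like protein, Cluster-5789.9553, reverse: aatgtcaggtttgttcaatct
laminin subunit gamma-3, Cluster-5789.8159, forward: agaagacttaccatcgcata
laminin subunit gamma-3, Cluster-5789.8159, reverse: tccatcgtgaagattgaga
Unigenes are transcripts assembled without a genome, so no genome position belongs to them. The names are best matches in other species and exist only for the unigenes that the study listed. All other unigenes are given by the number of their assembly cluster, without a name or a role.

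The libraries held 17172891 to 27160267 counts each and listed the same 11114 unigenes. These are fewer than the unigenes that the study assembled, and each had an estimated count above 0 in every library. Levels are given as counts per 1000000 counts (CPM) after TMM scaling. They are not divided by transcript length, so they compare libraries for a unigene and do not rank unigenes by the number of molecules. The replicates of a stage differed unequally: among unigenes above 20 CPM, the median absolute deviation of the log2 ratio of both replicates, scaled to estimate an SD, was 0.06 in M, 0.296 in SF and 0.264 in PF. The chi-square between replicates per degree of freedom, which is 1 for sampling noise alone, was 1.83 in M, 166 in SF and 92.1 in PF. Both male libraries thus differed far less than the female pools. Because the counts are estimated and were rounded, 1.83 cannot show whether the male libraries differed by more than sampling noise.

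Males and parthenogenetic females differed in about 1 in 3 tested unigenes. Of 10822 tested unigenes, 1962 (18.1%) were higher in M than in PF and 1720 (15.9%) were lower, so 34% were differentially expressed (DEGs). To be called a DEG, a unigene needed a log2 fold change over 1 in either direction with an edgeR adjusted p below 0.05. In these pools of whole animals, fewer cells of a type and less RNA per cell cannot be told apart. The DEGs higher in M had a median of 51.7 CPM in M, 24.8 CPM in SF and 9.36 CPM in PF. Those lower in M had a median of 8.81 CPM in M, 20.7 CPM in SF and 30 CPM in PF. The median log2 fold change (M over PF) was 2.05 for the higher and -1.47 for the lower unigenes, beside -0.07 over all tested unigenes. Both M libraries lay outside the range of both PF libraries in all 3682 DEGs, against 82.4% of all tested unigenes. Which direction held more DEGs depended on the scaling, since 53.3% of the DEGs were higher in M with TMM and 47.9% with library size alone.

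**Figure D1:**
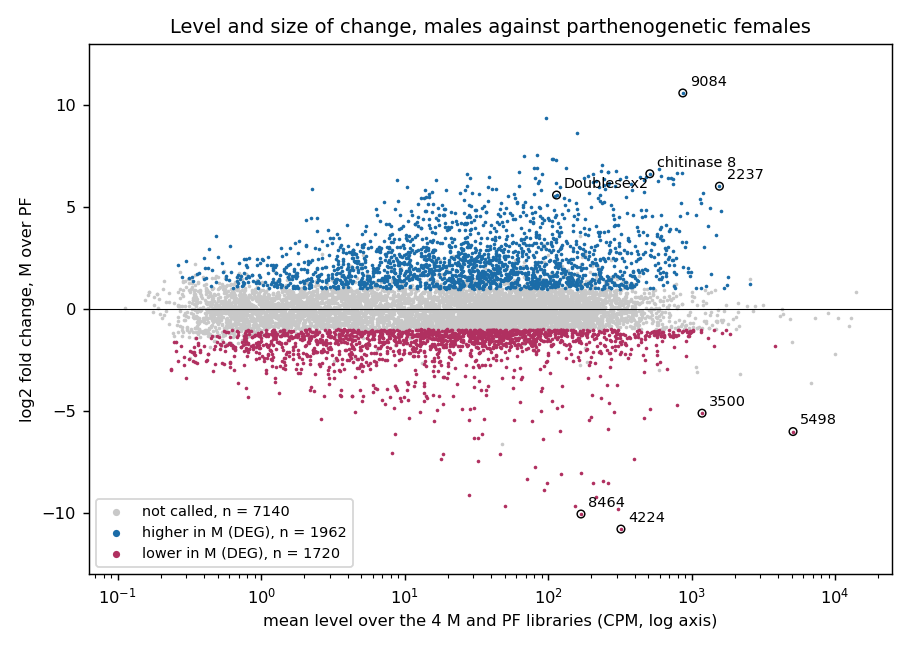
Each point is 1 of 10822 tested unigenes, with its mean CPM over the 4 M and PF libraries on a log axis and the log2 fold change of M over PF on the vertical axis. Unigenes higher in M (1962) and lower in M (1720) are coloured, and the circled ones, such as Cluster-5789.9084 at 10.60 and Cluster-5789.4224 at -10.79, are described in the text.

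Size of change separated the directions. Increases outnumbered decreases among large changes, with 743 higher against 338 lower unigenes at 4-fold to under 16-fold, 207 against 59 at 16-fold to under 64-fold and 56 against 28 at 64-fold or more. Among changes of 2-fold to under 4-fold the decreases were more numerous, with 956 higher and 1295 lower unigenes. The 56 unigenes that were at least 64-fold higher in M had medians of 445 CPM in M, 160 CPM in SF and 4.2 CPM in PF. The 28 that were at least 64-fold lower had medians of 0.675 CPM in M, 128 CPM in SF and 184 CPM in PF. Sexual females thus sat between the stages for the largest increases, and close to parthenogenetic females for the largest decreases. A change of 4-fold or more was not called in 46 unigenes, and in 27 of these the PF libraries differed from each other by more than 2-fold.

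Calls also depended on level. Below 1 CPM on average over the M and PF libraries, 6.2% of 1016 tested unigenes were higher and 13% lower in M. At 100 to 1000 CPM, 22.4% of 2191 were higher and 13.4% lower. The median standard error of the log2 fold change was 0.467 below 1 CPM and 0.146 at 100 to 1000 CPM.

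**Figure D2:**
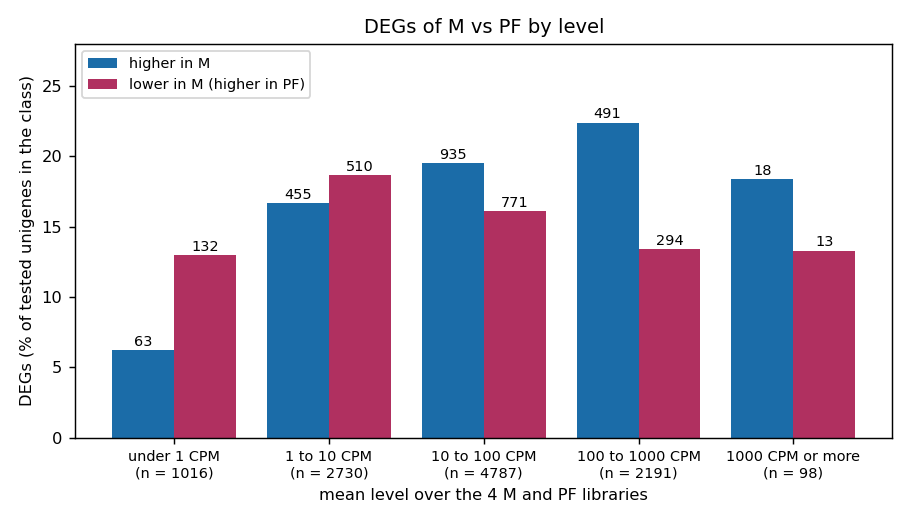
Bars give the share of tested unigenes in each class of mean CPM that were higher or lower in M than in PF, with the number of DEGs above each bar. The share higher in M was 6.2% below 1 CPM and 22.4% at 100 to 1000 CPM, and the share lower in M was largest, at 18.7%, at 1 to 10 CPM.

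The DEGs took up very different shares of the libraries. The unigenes higher in M held 33.75% and 33.86% of all counts in the M libraries and 19.28% and 15.82% in the SF libraries, against 6.982% and 7.071% in the PF libraries. Both SF libraries lay between M and PF and nearer to PF, with SF_1 less far from M than SF_2. The unigenes lower in M held 7.174% and 7.131% of the counts in M and 18.31% and 21.58% in SF, against 22.23% and 23.99% in PF. On average the DEGs higher in M held 33.8 ± 0.0778% in M, 17.6 ± 2.45% in SF and 7.03 ± 0.0629% in PF, and those lower in M held 7.15 ± 0.0304% in M, 19.9 ± 2.31% in SF and 23.1 ± 1.24% in PF (SD, n = 2 each). These shares were not tested, because the same M and PF libraries chose the unigenes.

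**Figure D3:**
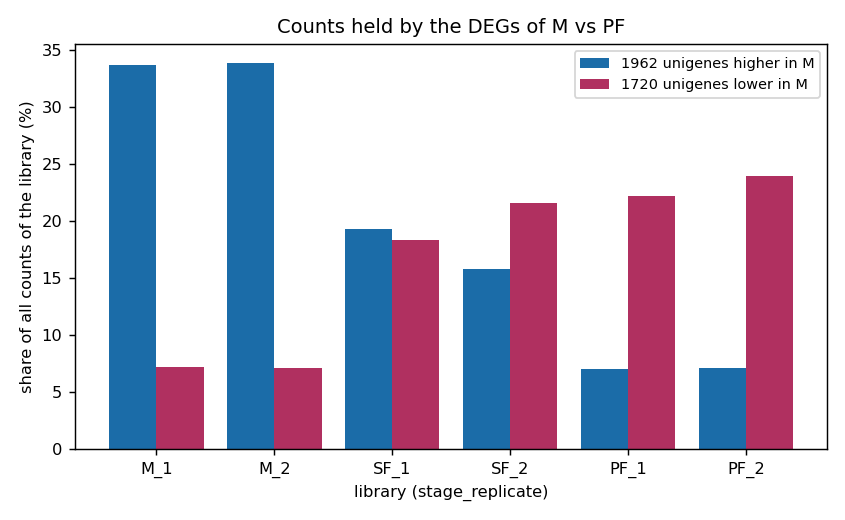
Bars show the percentage of all counts of each library that fell on the 1962 unigenes higher in M and on the 1720 lower in M. Both M libraries give about 33.8% to the unigenes higher in M, both PF libraries about 7.03%, and the SF libraries lie between.

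The gain was spread over many unigenes. It took the 137 unigenes with the largest differences to reach 50% of the summed difference of mean CPM among those higher in M, and 91 among those lower in M. The 10 unigenes with the largest difference made up 8.54% of the summed gain and 17.2% of the summed loss, and Cluster-5789.5498 alone made up 6.57% of the loss.

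The study's list of male-biased unigenes was nearly all higher in M than in PF. Of its 36 unigenes, 28 were tested and 27 of them were higher in M, with none lower, beside 18.1% of all tested unigenes higher in M. The rest of the list was not among the 11114 unigenes of the libraries, so the filter on low counts did not remove it. The study drew candidates from its top increases in males in these samples. It then kept those that its quantitative PCR found higher in males than in every female stage. The count here is thus not independent evidence of the direction of the list. The median log2 fold change of the 28 was 5.41, with a range of -1.72 to 7.09.

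Doublesex2 is a match to the doublesex family of transcription factors. The study treats it apart from Dsx1 and proposes that it may have a role in keeping the male sex. Doublesex2 had 228 and 221 CPM in M and 4.03 and 3.91 CPM in SF, against 3.46 and 5.9 CPM in PF. Both M libraries were far above all female adults, and SF did not differ from PF beyond their spread (log2 fold change SF over PF -0.23, edgeR adjusted p = 0.569). The M over PF log2 fold change was 5.59 ± 0.30 (SE, edgeR adjusted p = 6.23e-05). The study listed this unigene from these same samples and labels, so its level is no independent check of the stage labels. Laminin subunit gamma-3, a chain of the basement membrane protein laminin, had 743 and 745 CPM in M and 86.3 and 75.8 CPM in SF, against 127 and 132 CPM in PF. Males were highest and sexual females lowest, without overlap between the stages. Its log2 fold change was 2.52 ± 0.11 for M over PF (edgeR adjusted p = 3.68e-05) and -0.67 for SF over PF (edgeR adjusted p = 0.00701), the second of which was under the fold change required of a DEG.

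All 3 listed unigenes of chitin metabolism were higher in M. Chitin synthase 2, a match to the enzyme that polymerizes chitin for cuticle or gut lining, had 519.8 and 520.4 CPM in M and 388 and 139.5 CPM in SF, against 6.79 and 7.3 CPM in PF. Chitinase 8, from the enzymes that break chitin down, had 1028 and 997 CPM in M and 705 and 252 CPM in SF, against 11.6 and 8.71 CPM in PF. Chitinase 5 had 1147 and 1140 CPM in M and 538 and 96.3 CPM in SF, against 16.1 and 12.9 CPM in PF. In each of them all M libraries exceeded the SF libraries, and the SF libraries exceeded the PF libraries. The log2 fold changes of M over PF were 6.21 ± 0.55, 6.63 ± 0.57 and 6.30 ± 0.90, with edgeR adjusted p between 0.000318 and 0.00207. SF was also above PF in all 3, by 5.23, 5.55 and 4.45 on the log2 scale (edgeR adjusted p at most 0.0139), while M over SF was not called in any (adjusted p from 0.0924 to 0.12). SF_1 was 2.78 to 5.59 times SF_2 for these unigenes, so the level in sexual females was poorly determined.

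The 6 listed serine proteases, which include digestive enzymes of the trypsin family, were also all higher in M. Where members of this family are alike in sequence, reads can be split between them, so single values are uncertain. Sexual females fell into different places for them. The trypsin-7-like protein had 471 and 472 CPM in M and 7.41 and 0.81 CPM in SF, against 5.49 and 1.3 CPM in PF. Putative trypsin-7 had 1152 and 1195 CPM in M and 53.2 and 18.3 CPM in SF, against 13 and 6.82 CPM in PF. Both unigenes were far lower in both kinds of females than in males, and for the trypsin-7-like protein the SF and PF libraries overlapped. Their log2 fold changes of M over PF were 7.09 ± 1.19 (edgeR adjusted p = 0.00392) and 6.88 ± 0.67 (edgeR adjusted p = 0.000492). Trypsin alpha-like had 742 and 751 CPM in M and 541 and 239 CPM in SF, against 29.8 and 31.4 CPM in PF. The serine protease ami-like had 522 and 517 CPM in M and 404 and 116 CPM in SF, against 5.53 and 4.44 CPM in PF. For these 2 proteases sexual females lay nearer to males on the log2 scale. The log2 fold changes of SF over PF were 3.67 and 5.70 (edgeR adjusted p = 0.00194 and 0.00307). SF_1 was 2.27 and 3.47 times SF_2 for them, so the level in sexual females was poorly determined. The partial putative trypsin-7 and trypsin-like isoform X1 were higher in M by 5.09 ± 0.68 and 3.49 ± 0.38 on the log2 scale. Their SF libraries overlapped the PF libraries, and SF over PF was -0.24 (edgeR adjusted p = 0.8) and -0.22 (edgeR adjusted p = 0.68).

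Of the 17 listed unigenes without a described function that were tested, 16 were higher in M, beside 18.1% of all tested unigenes, with log2 fold changes of 1.92 to 6.61. They were divided here by the level in sexual females, with no test of SF on the sets so formed. In 8 of them the SF mean lay nearer to M than to PF on the log2 scale, with 145 to 1131 CPM in SF. An example is Cluster-5789.1931, with 914.4 and 913 CPM in M and 864 and 462 CPM in SF, against 7.52 and 15.4 CPM in PF. In the other 8 the SF mean lay nearer to PF or below it, with 0.61 to 105 CPM in SF. Cluster-5789.9162, from this set, had 97.3 and 100.3 CPM in M and 0.649 and 0.572 CPM in SF, against 3.29 and 2.98 CPM in PF, so both SF libraries were below both PF libraries, with a log2 fold change of SF over PF of -2.35. The remaining listed unigene, Cluster-5789.11844, had 32 and 31.4 CPM in M and 1832 and 3506 CPM in SF, against 27.2 and 182 CPM in PF. M over SF was -6.39 (edgeR adjusted p = 0.00558), whereas the study's quantitative PCR placed this unigene higher in males than in sexual females. The PF libraries lay on both sides of the M libraries, and M over PF was -1.72 ± 0.85 (edgeR adjusted p = 0.138). Without PF_1 it was -2.45 with an edgeR adjusted p of 0.00702, and without PF_2 it was 0.22 with 0.704, so the library that was left out decided both the call and the direction.

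The 10 largest increases among unigenes of at least 20 CPM in males ranged over log2 fold changes of 6.92 to 10.60. Cluster-5789.9084 led with 1721 and 1749 CPM in M and 23.5 and 3.19 CPM in SF, against 0.854 and 1.41 CPM in PF. Its log2 fold change was 10.60 ± 1.21 (edgeR adjusted p = 0.00093), and SF lay above PF but far below M. Cluster-5789.12248 had 193 and 191 CPM in M and 5.14 and 0.667 CPM in SF, against 0.203 and 0.379 CPM in PF. Cluster-5789.10726 had 318 and 314 CPM in M and 24.3 and 2.24 CPM in SF, against 0.935 and 0.595 CPM in PF. These 3 were high in males only among the adults, though all SF libraries exceeded the PF libraries. Their log2 fold changes of 9.39 ± 1.08 and 8.65 ± 1.32 for the second and the third had edgeR adjusted p of 0.00095 and 0.00264.

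A different pattern was seen in 5 others of the 10, Cluster-5789.1301, Cluster-5789.11836, Cluster-5789.7782, Cluster-5789.7329 and Cluster-5789.10912. Their SF mean lay nearer to M than to PF on the log2 scale. In CPM it lay nearer to PF in Cluster-5789.1301, Cluster-5789.11836 and Cluster-5789.10912. Cluster-5789.7782 had 213 and 209 CPM in M and 243 and 88.6 CPM in SF, against 1.18 and 1.35 CPM in PF. The SF libraries lay on both sides of the M libraries, and M over SF was 0.35 on the log2 scale (edgeR adjusted p = 0.561) while M over PF was 7.38 ± 0.60 (edgeR adjusted p = 0.000287). Cluster-5789.1301 had 169.6 and 166 CPM in M and 76.1 and 17.5 CPM in SF, against 1.3 and 0.433 CPM in PF. It kept the order M, SF, PF in every library. Cluster-5789.9257 had 211 and 219 CPM in M and 3.66 and 3.86 CPM in SF, against 1.58 and 1.03 CPM in PF, with the smallest error of the 10 at 7.34 ± 0.22 (edgeR adjusted p = 2.23e-05). The trypsin-7-like protein was the remaining member. SF_1 exceeded SF_2 in 9 of the 10 unigenes, by up to 10.8-fold.

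**Figure D4:**
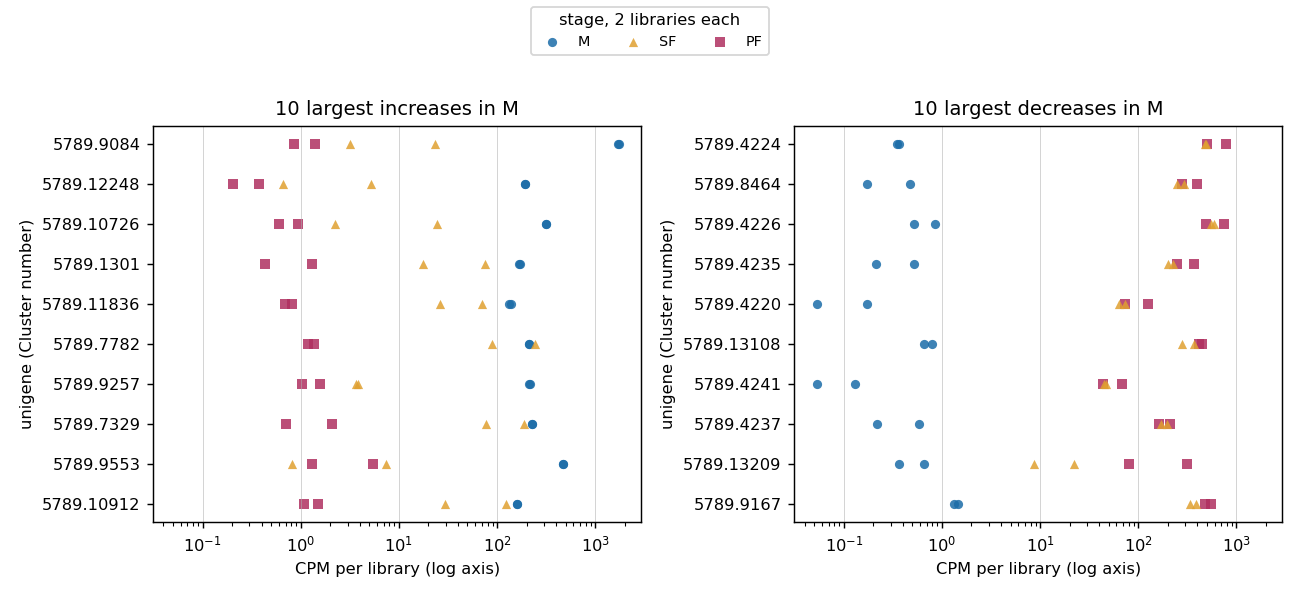
Points give the CPM of each M, SF and PF library (2 libraries a stage, log axis) for the 10 largest increases in M, left, and the 10 largest decreases in M, right, with the cluster number of each unigene down the side. In the left panel the SF libraries lie anywhere from the PF level to the M level, and in the right panel they lie close to the PF libraries for all but Cluster-5789.13209.

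The 10 largest decreases ranged over log2 fold changes of -10.79 to -8.53, and the highest M library among them had 1.47 CPM. Cluster-5789.4224 had 0.346 and 0.369 CPM in M and 495 and 478 CPM in SF, against 789.9 and 496 CPM in PF. Males were nearly without reads of it, while both kinds of females had high levels, and M over PF was -10.79 ± 0.34 (edgeR adjusted p = 2.23e-05). Cluster-5789.8464 had 0.173 and 0.475 CPM in M and 295 and 248 CPM in SF, against 399 and 278 CPM in PF, a log2 fold change of -10.05 ± 0.43 (edgeR adjusted p = 3.43e-05). SF was called different from PF in 1 of the 10, beside 14.8% of all tested unigenes, a description only, because the PF libraries also helped to choose the 10. The called unigene was Cluster-5789.13209, which had 0.649 and 0.369 CPM in M and 8.71 and 22 CPM in SF, against 80.2 and 310.2 CPM in PF. Its PF libraries differed by almost 4-fold, and SF over PF was -3.67 (edgeR adjusted p = 0.0242). For 2 unigenes the male value rested on a handful of reads. Cluster-5789.4220 had 4 and 1 counts in M, which gave an 869-fold lower level in M with a 95% interval for counting error alone of 372 to 2680. Cluster-5789.4241 had 3 and 1 counts in M and was 604-fold lower (236 to 2220).

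Several of the unigenes with the largest decreases had neighbouring cluster numbers, a feature that was looked at after their values were seen. The 3 runs given here were cut around at least 3 unigenes of close number with log2 fold changes under -6. Strong decreases within them thus follow from this choice and are a description only. Of 12 tested unigenes numbered 4220 to 4241, 10 were lower and 1 was higher in M, and 6 had log2 fold changes under -6. All 4 tested unigenes numbered 8460 to 8465 were lower in M, by log2 fold changes of -10.05 to -8.11, with at most 1.47 CPM in any M library and at least 119 CPM in any PF library. The 3 tested unigenes numbered 9842 to 9846 were also lower, by log2 fold changes of -7.36 to -7.04. Neighbouring numbers may be fragments or variants of the same transcript, which was not tested, so they may not be separate observations. Over all DEGs, the unigene with the next number had the same call in 23.4% of those higher in M and in 22.2% of those lower in M, beside 18.1% and 15.9% of all tested unigenes.

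The 5 increases with the largest difference of mean CPM were Cluster-5789.2237, Cluster-5789.5424, Cluster-5789.7730, Cluster-5789.7463 and Cluster-5789.8342. Cluster-5789.2237 had 3063 and 3093 CPM in M and 2331 and 466 CPM in SF, against 45.9 and 48.6 CPM in PF. Cluster-5789.5424 had 3066 and 3104 CPM in M and 2303 and 1350 CPM in SF, against 139.6 and 78.2 CPM in PF. In all 5 unigenes the order of the libraries was M above SF above PF. The SF mean lay on the male side of the middle on the log2 scale. In CPM it lay nearer to PF in Cluster-5789.2237, Cluster-5789.7463 and Cluster-5789.8342. Their M over PF log2 fold changes were 3.63 to 6.02, with edgeR adjusted p of at most 0.00176. SF was called above PF in each, beside 9.98% of all tested unigenes. The PF libraries that helped to choose these unigenes are also the baseline of SF over PF, so this count is a description only.

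Among decreases by difference of mean CPM, Cluster-5789.5498 was far ahead. It had 155 and 157 CPM in M and 5521 and 1330 CPM in SF, against 12004 and 8048 CPM in PF, so it made up 1.18% and 0.866% of all counts in the PF libraries. Its log2 fold change was -6.01 ± 0.92 (edgeR adjusted p = 0.00273), and SF lay between the other stages. Cluster-5789.3500 had 66.5 and 66.7 CPM in M and 2227 and 2267 CPM in SF, against 2604 and 1991 CPM in PF. The SF libraries lay within the range of the PF libraries, and M over PF was -5.11 ± 0.17 (edgeR adjusted p = 2.44e-05). Cluster-5789.6363 and Cluster-5789.6147 were lower in M by -1.81 ± 0.15 and -1.23 ± 0.11 on the log2 scale, and SF was above PF by 0.21 and 0.25, neither of which was called. Cluster-5789.6978 had 1689 and 1696 CPM in M and 3115 and 1375 CPM in SF, against 8461 and 3512 CPM in PF, with a log2 fold change of -1.82 ± 0.52 (edgeR adjusted p = 0.0264). Its call was lost without PF_1, at -0.98 with an edgeR adjusted p of 0.111, and without M_1 or M_2, at an adjusted p of 0.115 each.

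Some DEGs were close to absent in a stage. Every listed unigene had an estimated count above 0 in every library, so unigenes without reads in a stage are outside these counts. In 28 unigenes both PF libraries were under 1 CPM and both M libraries over 10 CPM, with at most 316 CPM as the M mean, and in 11 of them both SF libraries also exceeded 10 CPM. In 30 unigenes both M libraries were under 1 CPM and both PF libraries over 10 CPM, with at most 643 CPM as the PF mean. In 25 of these 30 both SF libraries exceeded 10 CPM, so most of the unigenes close to absent in males were present in both kinds of females.

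Sexual females lay between the stages for most DEGs, and their place differed by direction. On a log2 scale from 0 at the PF mean to 1 at the M mean, the median place of SF was 0.565 for the unigenes higher in M, with quartiles of 0.235 and 0.807. For the unigenes lower in M it was 0.196, with quartiles of -0.0103 and 0.466. Sexual females were on the male side of the middle in 56% of the unigenes higher in M and in 22.9% of those lower in M. Sexual females were thus nearer to males in a little over 50% of the unigenes higher in M, and nearer to parthenogenetic females in most of those lower in M. The SF mean passed the M mean in 174 unigenes higher and 114 lower in M, and passed the PF mean in 249 higher and 457 lower in M. Both SF libraries lay between the M and the PF libraries in 1073 unigenes higher in M (54.7%) and in 818 lower in M (47.6%). The M and PF libraries chose these unigenes, so the place of SF is a description without a test.

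The contrast grew with the size of the change. Among unigenes higher in M, the share with SF on the male side was 45.6% at 2-fold to under 4-fold, 60.3% at 4-fold to under 16-fold, 80.7% at 16-fold to under 64-fold and 83.9% at 64-fold or more. Among unigenes lower in M it was 25.6%, 15.7%, 15.3% and 0% for the same sizes. The SF libraries did not place alike. With SF_1 alone, 58.1% of the unigenes higher in M and 26.4% of those lower in M were on the male side, and with SF_2 alone 47.6% and 21.5%. SF_1 was above SF_2 in 64.6% of the unigenes higher in M and in 29.9% of those lower in M, beside 49% of all tested unigenes. The SF libraries differed by more than 2-fold in 19.6% of the unigenes higher in M, against 9.24% of all tested unigenes, and in 36 of the 56 with 64-fold or larger increases.

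**Figure D5:**
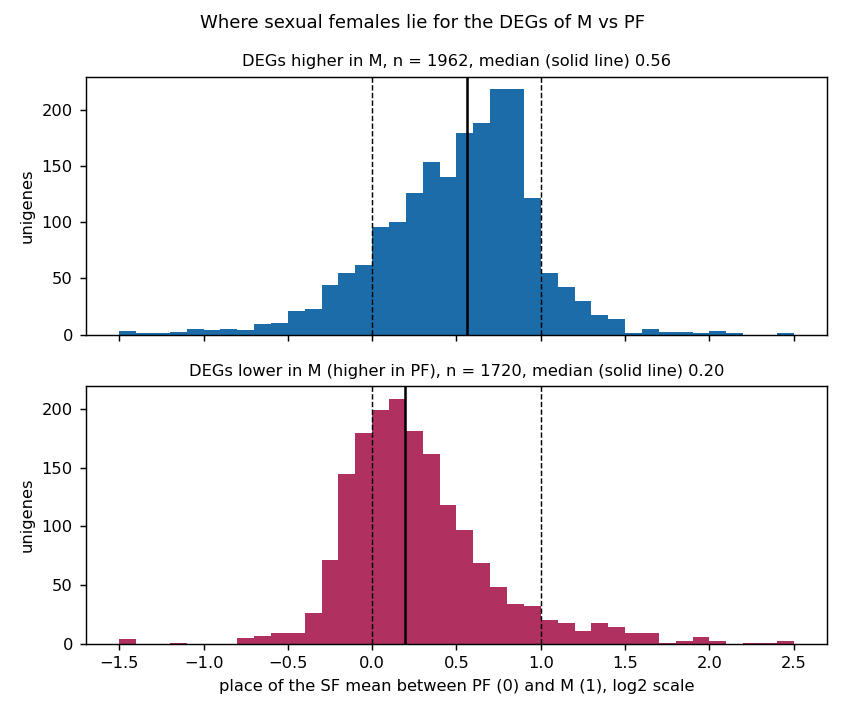
Histograms show where the SF mean lay for each DEG on a log2 scale with the PF mean at 0 and the M mean at 1 (dashed lines), for unigenes higher in M above and lower in M below. Values outside the axis were drawn in the end bars. The medians (solid lines) are 0.565 and 0.196, so the median lies near the middle in the upper panel and nearer to PF in the lower one. With SF_2 alone the median for unigenes higher in M was 0.472, on the PF side of the middle.

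Each comparison gave its own number of calls. In M vs SF, 1101 unigenes (10.2%) were higher and 1293 (11.9%) lower in M, 22.1% in all. In SF vs PF, 1080 (9.98%) were higher and 524 (4.84%) lower in SF, 14.8% in all. These comparisons share libraries with M vs PF, so no overlap is read between them.

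Some unigenes put sexual females beyond both other stages. Cluster-5789.8755 had 158 and 158 CPM in M and 501 and 812 CPM in SF, against 15.6 and 25.4 CPM in PF. Cluster-5789.2848 had 141 and 138 CPM in M and 476 and 736 CPM in SF, against 20.1 and 52.2 CPM in PF. Both were highest in sexual females without overlap, with M over PF of 2.95 ± 0.32 (edgeR adjusted p = 0.000528) and 1.95 ± 0.47 (edgeR adjusted p = 0.0136). The second call was lost when either male library was left out, at edgeR adjusted p of 0.053 without M_1 and 0.0513 without M_2. In the opposite direction, Cluster-5789.13086 had 8.87 and 8.71 CPM in M and 0.695 and 0.857 CPM in SF, against 597 and 438 CPM in PF. Cluster-5789.9132 had 32.1 and 34 CPM in M and 1.48 and 1 CPM in SF, against 391 and 299 CPM in PF. For this pair sexual females had less than males, and parthenogenetic females had by far the most. The log2 fold changes of SF over PF were -9.37 and -8.11, against -5.88 ± 0.22 and -3.38 ± 0.21 for M over PF (edgeR adjusted p = 2.99e-05 and 9.16e-05).

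Sexual females also passed parthenogenetic females on the side away from males. Cluster-5789.12079 had 238 and 236 CPM in M and 8.02 and 6.53 CPM in SF, against 74.4 and 41.5 CPM in PF. Cluster-5789.11799 had 359 and 366 CPM in M and 6.26 and 2.52 CPM in SF, against 30.8 and 17.3 CPM in PF. Among the adults both were lowest in sexual females, by log2 fold changes of SF over PF of -2.99 and -2.45. These unigenes were named for the place of SF, so no test of SF over PF is given for them. Cluster-5789.3715 had 30.7 and 28.2 CPM in M and 997 and 1557 CPM in SF, against 125 and 146 CPM in PF, with a log2 fold change of SF over PF of 3.23. Cluster-5789.2091 had 149.7 and 152 CPM in M and 435 and 740.5 CPM in SF, against 347 and 323 CPM in PF, and its M over PF of -1.15 ± 0.27 (edgeR adjusted p = 0.0108) was no longer called without PF_1 (0.0584), M_1 (0.063) or M_2 (0.0602).

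Likeness of M and PF was shown for part of the unigenes only. The 95% interval of the log2 fold change lay within -1 to 1 in 3575 unigenes (33%) and within -0.5 to 0.5 in 789 (7.29%), while 3565 (32.9%) were neither called nor bounded within -1 to 1. The 3 with most counts among the 789 were Cluster-5789.6288, Cluster-5789.6226 and Cluster-5789.5824. Cluster-5789.6288 had 4358 and 4271 CPM in M and 3288 and 2437 CPM in SF, against 4743 and 3817 CPM in PF. Its M libraries lay within the range of the PF libraries, with a log2 fold change of 0.01 ± 0.18. Cluster-5789.6226 and Cluster-5789.5824 were at 0.22 ± 0.11 each.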

How the data were processed

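Poly-A RNA of 8 libraries, 2 for each of 4 stages, was sequenced as paired ends. The authors discarded low-quality reads and reads with adapter or undetermined bases, assembled all reads with Trinity and deposited estimated counts per unigene, not normalized, with 1 table a library. The sources used here name no aligner or counting program. Of the 11114 IDs, 0 were found in the reference gene table, and 8 of the 36 unigenes on the study's list were not among these IDs.

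For the tests, the estimated counts were rounded. edgeR 4.0.16 (limma 3.58.1, R 4.3.3) with TMM scaling and its filter on low counts by stage kept 10822 unigenes and removed 292. Its quasi-likelihood test with robust estimation was fitted once over the 8 libraries, with no term other than stage, which left 4 residual degrees of freedom, and p-values were adjusted by Benjamini-Hochberg over all tested unigenes. The study's thresholds for DEGs were used, that is a log2 fold change over 1 in either direction and an adjusted p below 0.05. Intervals of fold changes are 95% intervals of this fit. Intervals from single counts cover counting error only. The test was also run on simulated counts with known changes, whose values are not given here.

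The unigenes and lists were chosen with earlier results of these data known. Named unigenes were those on the study's list, the 10 largest increases and 10 largest decreases with at least 20 CPM in the higher stage and no overlap, the 5 increases and 5 decreases with the largest difference of mean CPM and no overlap, the 2 in each direction with sexual females farthest beyond M and the 2 farthest beyond PF at 100 CPM or more, and the 3 most abundant whose 95% interval lay within -0.5 to 0.5. Alternatives covered other scaling, other filters, DESeq2 1.42.0, fits of 4 libraries, other thresholds, the replicate number as a block, the main assembly cluster only, summed male libraries, single SF libraries and each library left out. Figures were drawn with matplotlib 3.10.9. The quantitative PCR measurements were not analysed here.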

Additional observations from a re-analysis of the deposited data

Results flagged for a closer look

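In 4 unigenes named for the place of sexual females, males lay between both kinds of females, higher than one and lower than the other by the calls of M vs PF and M vs SF. They were chosen for this place of SF, so the difference between sexual and parthenogenetic females is a description without a test. The log2 fold change of SF over PF was -9.37 in Cluster-5789.13086 and -8.11 in Cluster-5789.9132. It was 5.004 in Cluster-5789.8755 and 4.07 in Cluster-5789.2848.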

How the results depend on the processing

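Over 68 named unigenes, 1339 of 1360 alternative values kept the direction and the side of the threshold. The other 21 fell on 6 unigenes, with 15 calls lost, 1 gained and 5 directions turned. Cluster-5789.11844 lay between -2.45 without PF_1 and 0.22 without PF_2. Cluster-5789.6288, near 0 throughout, was -0.0735 with library size only and -0.0067 with a stricter filter, and lay between -0.14 without PF_2 and 0.25 without PF_1, with -0.0024 without M_1.

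An adjusted p without a fold change threshold gave 2765 higher and 3337 lower unigenes in M, and a 2-fold change as part of the test gave 1232 and 832. The share of M counts held by unigenes higher in M was 35.1% with DESeq2 size factors, 31.9% with library size only, 33.4% with a stricter filter, 36.6% and 36.8% with DESeq2 on 8 and 4 libraries, 34.9% with edgeR on 4 libraries, 43% without the fold change threshold, 25.6% with it in the test and 31% with summed male libraries. The share of PF counts held by unigenes lower in M was 19.9% with DESeq2 size factors, 26.6% with library size only, 24.7% and 25.5% with DESeq2 and edgeR on 4 libraries, 45.4% without the fold change threshold, 12.5% with it in the test and 21.3% with summed male libraries. Sexual females were on the male side for 26.6% (DESeq2 size factors), 27.1% (DESeq2 on 8 libraries), 30.3% (no fold change threshold), 16.3% (threshold in the test) and 26.4% (SF_1 only) of unigenes lower in M. Among those higher in M the share was 50.4% (DESeq2 size factors), 50.9% (DESeq2 on 8 libraries), 51.1% (no fold change threshold), 60.4% (threshold in the test) and 47.6% (SF_2 only). Other thresholds select other sets by construction, and the cause of the other shifts was not tested.

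Leaving out each library in turn gave 1663 to 2191 higher and 1479 to 1724 lower unigenes, shares of 30.9% to 37.1% of M counts and 20.2% to 25.3% of PF counts, and SF on the male side for 47.3% to 60.8% of the higher and 19% to 26.8% of the lower unigenes. With the replicate number as a block, 1947 unigenes were higher and 1695 lower, and no named call changed. Deviations of same-numbered M and PF libraries had a correlation of 0.00521, and the pairs of stages ranged from -0.0362 (PF and JF) to 0.121 (SF and JF). Because the M replicates differed so little, the value for M and PF cannot show whether the numbers mark pairs. With 2 pools a stage the spread is estimated across unigenes and stages, and the small male spread is part of that estimate.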

Other observations

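Juvenile females had counts of many DEGs. The unigenes higher in M held 22.9% and 21.8% of the counts in the JF libraries, and those lower in M held 10.5% and 9.96%. The 56 unigenes at least 64-fold higher in M than in PF had a median of 36.5 CPM in JF, and the 28 at least 64-fold lower had a median of 22.8 CPM. Over all DEGs the JF median was 25.8 CPM for unigenes higher in M and 12.3 CPM for those lower in M. Juvenile females came from mothers kept singly, so age and culture cannot be told apart in these values.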
